A study of Mus musculus with 40 samples.

Results

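Adult DBA males that had been through repeated cross fostering (RCF) were compared with unhandled DBA male controls by RNA sequencing of the ventral tegmental area (VTA). The comparison took the 5 RCF and the 5 control libraries that the labels give for DBA males, 10 of the 40 libraries of the series, and covered every gene tested. RCF means that a litter is handed to a different adoptive mother on each day from postnatal day 1 to 4. The series crosses 2 strains (C57 and DBA), both sexes and RCF against control in 8 groups of 5 libraries. All 10 compared libraries carry the labels DBA, male and adult and came from frozen VTA punches, and the substrain is not named. The labels name neither animal nor litter, so each p-value measures the spread between libraries, which may be technical. For the gene tests that spread was estimated over all 40 libraries, unless a fit with fewer is named.

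The VTA is a midbrain region whose dopamine neurons project to the striatum and cortex and take part in reward and motivation. Those neurons lie among GABA and glutamate neurons and beside the substantia nigra, the mammillary bodies and the lateral hypothalamus. Repeated changes of caregiver in early life are used in mice as a model of unstable maternal care, and adult dopamine circuits are one place where lasting differences are looked for.

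Between RCF and control DBA males, 3 gene models and no named gene passed the threshold by edgeR. The noncoding model Gm49192 and Gm48159, an antisense model at the Rspo3 locus, rose in RCF, and Gm43333, a model of unknown kind, fell. Of 18441 genes tested, 2 rose (0.0108%) and 1 fell (0.00542%), 3 in all (0.0163%), at an adjusted p under 0.05 in edgeR's quasi-likelihood test, which is the test behind every adjusted p that names no other tool. Without adjustment, 381 genes with a higher mean (2.07%) and 858 with a lower mean in RCF (4.65%) had a p under 0.05, 1239 in all (6.72%). DESeq2 called 3 genes higher (0.0163%) and 15 lower (0.0814%), 18 in all (0.0977%), with 1400 at an unadjusted p under 0.05 (7.6%), and its calls included the named genes Lrrc71, Nup210l, Mx1, Klhl30, Zxdb and Hopxos. By limma-voom 0 genes were called (0%), with 1028 at an unadjusted p under 0.05 (5.57%). Levels are CPM, read counts scaled to library size with TMM factors, which compares 1 gene between libraries and not 1 gene with another, since length is not considered.

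The 3 models are little described, so the reference sequence that carries them is shown, from GENCODE M21 transcripts on GRCm38, which hold the C57BL/6J sequence and not that of DBA. For Gm49192 the capitals mark the whole first exon, and the lower case letters are the start of exon 2, chr14:45945385-45945569 on the minus strand. The letters of that first exon resemble the end of a common sequencing adapter, and whether it is a true exon was not tested. For Gm48159 the whole second exon is given, chr10:29614278-29614471 on the plus strand. For Gm43333 the first 200 bases are given, chr5:104072126-104072325 on the minus strand, and the 153 bases that match the overlapping model Gm17660 lie outside that stretch.
Gm49192: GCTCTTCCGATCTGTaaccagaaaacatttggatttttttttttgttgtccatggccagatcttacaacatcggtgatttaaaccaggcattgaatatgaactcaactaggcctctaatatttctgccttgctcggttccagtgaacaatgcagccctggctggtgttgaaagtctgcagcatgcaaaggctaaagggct
Gm48159: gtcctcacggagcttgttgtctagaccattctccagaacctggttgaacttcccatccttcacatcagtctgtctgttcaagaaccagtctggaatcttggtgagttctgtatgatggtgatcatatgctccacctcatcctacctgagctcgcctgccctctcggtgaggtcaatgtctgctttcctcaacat
Gm43333: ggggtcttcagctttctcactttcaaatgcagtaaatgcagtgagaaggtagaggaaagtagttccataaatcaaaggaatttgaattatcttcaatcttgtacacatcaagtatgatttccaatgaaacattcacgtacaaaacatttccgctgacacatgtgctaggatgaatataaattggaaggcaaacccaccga

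The libraries themselves differed, and 2 controls and 1 RCF library stood apart. Total counts ran from 20687263 to 25981155 in RCF and from 16913124 to 25016924 in controls, and control replicate 4 was the lowest of all 40. Principal component 1 of the 10 libraries, with 41.5% of the variance, set control 4 against the other 9, and component 2, with 13.5%, set control 3 apart. In control 4, 109 genes were at least 4-fold above every other library of the 10 and 456 at least 4-fold below. The same counts of genes above were 62 in control 3, led by dopamine and midbrain genes, and 34 in RCF 2, led by genes of motile cilia. Sex-specific genes fitted the male label in all 10 libraries. Of 89 genes that separated the strains in the female libraries, 88 or 89 were nearer to DBA in 9 of the 10 libraries and 82 in control 4. The median SD of log2 CPM per gene was 0.182 in RCF and 0.331 in controls, and 0.242 in controls without replicate 4.

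**Figure D1:**
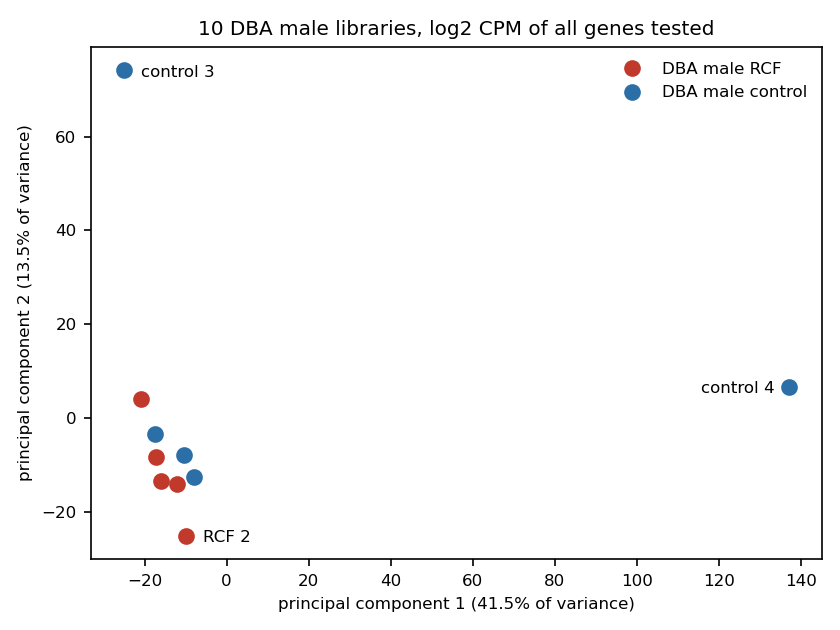
Principal components 1 and 2 of log2 CPM over all genes tested, 1 point per DBA male library, RCF in red and control in blue. Control 4 lies alone on component 1 and control 3 alone on component 2, while the other 8 libraries of both groups lie together.

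Gm49192 (ENSMUSG00000115000.1) is annotated as a lincRNA with 2 exons on chromosome 14, from 45944000 to 45991037 on the minus strand. Its level was 30.5, 21.1, 18.5, 19.8 and 19.8 CPM in RCF replicates 1 to 5, against 4.80, 5.04, 5.24, 9.14 and 5.42 CPM in control replicates 1 to 5. Every RCF library lay above every control, and the reads behind these levels numbered 413 to 651 in RCF and 111 to 169 in controls. The mean was 21.9 ± 4.89 CPM in RCF and 5.93 ± 1.81 CPM in controls (SD, n = 5 each). That is 1.89 on the log2 scale with an SE of 0.27 and an adjusted p of 6.61e-04. With each library left out in turn the log2 fold change stayed between 1.74 and 2.09 and past the threshold, and limma-voom was the only tool or setting tried where it did not pass (1.92, adjusted p = 0.0685). Gm15218, which spans the locus on the opposite strand, had 0 reads in the 10 libraries. The nearest tested genes, A530076I17Rik and Gm1821, were at -1.04 and -0.15 on that scale (adjusted p = 0.779 and 0.866). No other gene's reference transcripts matched it over 75 nt at 95% identity.

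The level of Gm49192 in DBA male controls was the lowest of the 8 groups. Its range was 34.2 to 69.4 CPM in DBA female RCF and 28.1 to 58.3 in DBA female controls, 35.9 to 50.4 in C57 male RCF and 16.9 to 39.8 in C57 male controls, and 19.6 to 57.6 in C57 female RCF and 24.5 to 33.7 in C57 female controls. Only in DBA males, where Gm49192 was chosen, did the RCF and control ranges not overlap, as for 0.629% of all genes tested there. In C57 males they overlapped through control 4 alone (39.8 CPM), and the other controls reached 23.6 CPM. The log2 fold changes of RCF over control were 0.21 in DBA females, 0.87 in C57 males and 0.17 in C57 females (adjusted p = 0.765, 0.609 and 0.819). The test of the difference gave 1.68 (SE 0.36, adjusted p = 0.225) for DBA males minus DBA females and 1.02 (SE 0.36, adjusted p = 0.610) for DBA males minus C57 males. DESeq2 gave 1.66 for the difference from DBA females and called it (adjusted p = 0.0135).

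Gm48159 (ENSMUSG00000110831.1) is annotated as antisense to Rspo3, which encodes R-spondin 3, a secreted amplifier of Wnt signalling, on chromosome 10 from 29534717 to 29614471 on the plus strand. It had 1.88, 2.43, 1.75, 1.03 and 1.20 CPM in RCF replicates 1 to 5, against 0.0781, 0.0907, 0.215, 0.216 and 0.127 CPM in control replicates 1 to 5. Those levels were 25 to 62 reads per RCF library and 2 to 5 reads per control library, and no RCF library reached down to the controls. The mean was 1.66 ± 0.560 CPM in RCF and 0.145 ± 0.0665 CPM in controls (SD, n = 5 each). That is 3.49 on the log2 scale with an SE of 0.59 and an adjusted p of 0.00491. Summed over libraries, 198 RCF reads against 16 control reads gave a ratio of 11.8 (95% exact interval 7.09 to 21.05, counting error only). Rspo3 itself had 3.67 ± 1.08 CPM in RCF and 4.52 ± 1.17 CPM in controls, a log2 fold change of -0.30 (adjusted p = 0.876). Of the Gm48159 transcript, 406 nt match Rspo3 transcripts exactly on the opposite strand and 197 nt match the pseudogene Gm46197, which had 0 reads in the 10 libraries. The library kit keeps strand, but the strand setting of the counting is not given, so some reads counted for the antisense model may be those of Rspo3. Without controls 3 and 4 together the log2 fold change was 4.00 and the call ended (adjusted p = 0.0565). The call also ended by limma-voom (adjusted p = 0.844) and with same-numbered libraries treated as blocks.

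RCF and control libraries of DBA females were apart as well, while those of C57 mice overlapped. Gm48159 ranged from 0.829 to 2.52 CPM in DBA female RCF and from 0 to 0.221 CPM in DBA female controls, which is 3.32 on the log2 scale (SE 0.59) at an adjusted p of 0.0175, where 1 gene was called higher in females (0.00542%). The comparisons of the sexes share no library. In C57 males the RCF range was 0.682 to 5.56 CPM and the control range 1.04 to 3.50 CPM, and in C57 females they were 1.38 to 3.39 and 0.367 to 2.26 CPM. The 10 DBA controls of both sexes were thus below all 20 C57 libraries, and the 10 DBA RCF libraries lay within the C57 range. The difference between the male and female effects in DBA was 0.17 (SE 0.87, adjusted p = 0.951) and that between DBA and C57 males 3.41 (SE 0.75, adjusted p = 0.539). DESeq2 gave 3.43 for the difference from C57 males and called it (adjusted p = 0.0318). Of the 89 strain-separating genes, 88 or 89 were nearer to DBA in each of the 5 male RCF libraries, and the strain of origin at this locus was not tested.

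Gm43333 (ENSMUSG00000105261.1) is a single-exon model with the biotype TEC, given to transcribed regions that await experimental proof, on chromosome 5 from 104070064 to 104072325 on the minus strand. It had 3.85, 5.18, 5.21, 4.89 and 4.36 CPM in RCF replicates 1 to 5, against 6.05, 32.9, 8.50, 313 and 25.9 CPM in control replicates 1 to 5. The RCF libraries were alike and all below the controls, which spread widely, with control 4 far above the rest. The mean was 4.70 ± 0.585 CPM in RCF and 77.2 ± 132 CPM in controls (SD, n = 5 each). That is -4.03 on the log2 scale with an SE of 0.65 and an adjusted p of 0.00491. Without control 4 it was -1.97 (adjusted p = 0.0304). With the 10 compared libraries fitted alone the value was -4.04 and the call ended (adjusted p = 0.916), as it did with the 20 DBA libraries alone (-4.05, adjusted p = 0.807) and by limma-voom (-2.39, adjusted p = 0.844). Gm17660, which overlaps it on the same strand, had 0.226 ± 0.191 CPM in RCF and 0.411 ± 0.211 CPM in controls (log2 fold change -0.83, adjusted p = 0.842), so shared reads may be split between them. Its neighbours Nudt9, a nucleotide sugar hydrolase gene, and Sparcl1, an astrocyte matrix protein gene, were at 0.11 and 0.21 on the log2 scale (adjusted p = 0.796 and 0.762).

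Gm43333 was also lower in RCF in the other 3 comparisons of the series, though none of them passed. In DBA females it had 4.16 to 18.7 CPM in RCF and 28.2 to 38.6 CPM in controls (log2 fold change -2.16, adjusted p = 0.227). In C57 males the ranges were 2.11 to 3.09 and 4.71 to 7.08 CPM (-1.16, adjusted p = 0.714), and in C57 females 2.56 to 4.95 and 4.82 to 6.28 CPM (-0.54, adjusted p = 0.755). RCF and control ranges did not overlap in 3 of the 4 comparisons, which share no libraries. DBA males, where Gm43333 was chosen, are 1 of the 3. There 0.629% of all genes tested did not overlap, and that share was not computed for the other comparisons. The effect in DBA males minus that in DBA females was -1.88 (adjusted p = 0.394), and minus that in C57 males -2.87 (adjusted p = 0.610). Without control 4 these differences were 0.19 and -0.80.

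**Figure D2:**
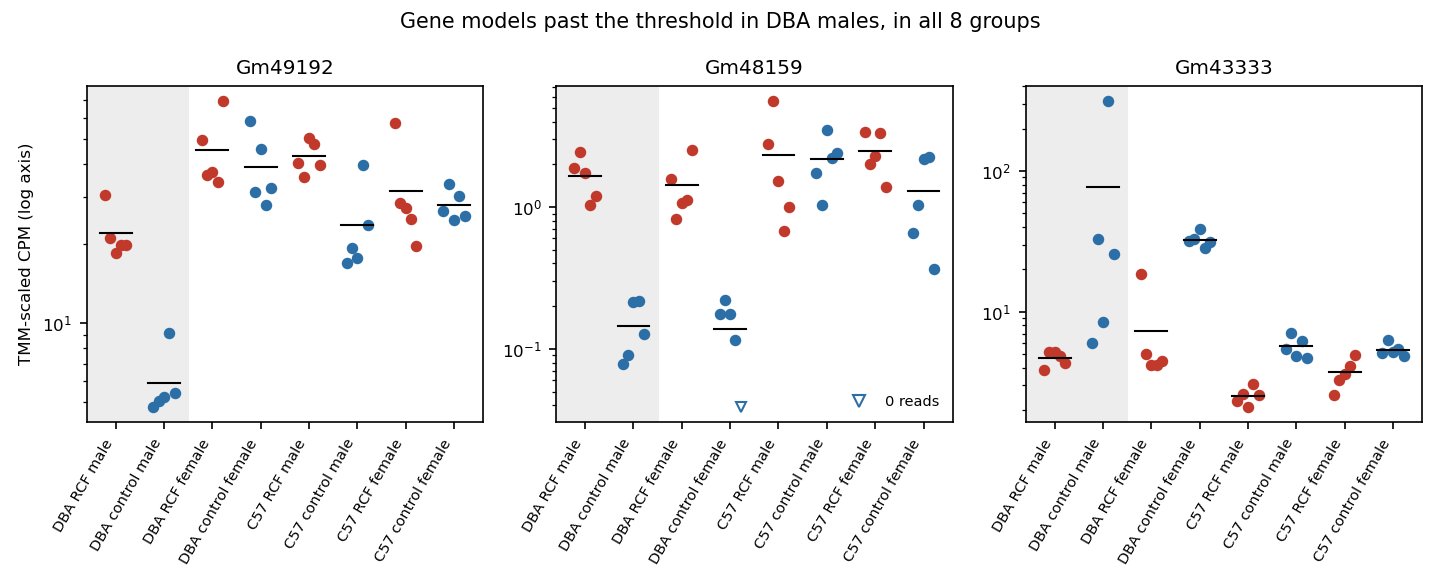
TMM-scaled CPM on a log axis of Gm49192, Gm48159 and Gm43333 in each of the 40 libraries, RCF in red and control in blue, with a line at each group mean and DBA males shaded. The open triangle is the DBA female control library with 0 reads of Gm48159. In DBA males the RCF points lie above the controls for the first pair of models and below them for Gm43333, whose highest point is control 4 at 313 CPM.

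None of the other named genes passed the threshold by edgeR, and those with the smallest p are given as values. Of the 12 with a higher mean in RCF, Slc4a8, Lama2, Depdc5, Btbd3, Pag1 and Tmco4 were spread over all RCF libraries. Slc4a8, a sodium-driven chloride and bicarbonate exchanger that regulates neuronal pH, had 238, 239, 226, 194 and 202 CPM in RCF against 198, 188, 178, 134 and 163 CPM in controls. Only RCF 4 was below the highest control, and the log2 fold change was 0.35 (SE 0.09, adjusted p = 0.297). Lama2, the alpha-2 chain of the basement membrane protein laminin, had 10.7, 9.10, 8.40, 9.94 and 10.6 CPM in RCF against 6.09, 8.08, 5.75, 4.92 and 8.56 CPM in controls (0.55, SE 0.14, adjusted p = 0.376). RCF 3 alone was below the highest control. Depdc5, a subunit of the GATOR1 complex that restrains mTORC1, had 75.0, 78.8, 78.8, 71.5 and 69.6 CPM in RCF against 65.9, 69.5, 66.2, 59.2 and 62.1 CPM in controls (0.21, SE 0.06, adjusted p = 0.410). These groups did not overlap, though RCF 5 and control 2 nearly met. Btbd3, which guides dendrites toward active axons in the cortex, had a log2 fold change of 0.50, Pag1, an adaptor that holds Src family kinases in check, one of 0.29, and Tmco4 one of 0.84 (adjusted p = 0.510, 0.547 and 0.271).

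The rest of these 12 genes, apart from Rln1, were highest in RCF 2. Lrrc71 had 0.328, 7.57, 0.544, 0.278 and 0.335 CPM in RCF against 0.195, 0.181, 0.386, 0.162 and 0.127 CPM in controls, and its log2 fold change of 3.07 (adjusted p = 0.319, and 0.0421 by DESeq2) was 0.79 without RCF 2. Drc3, a subunit of the dynein regulatory complex of motile cilia, had 10.3, 20.3, 9.56, 8.07 and 10.9 CPM in RCF against 8.08, 8.08, 6.05, 8.82 and 8.60 CPM in controls (0.58, and 0.28 without RCF 2). Cd109, a membrane-anchored protein that binds TGF-beta, and Prrg4 were at 6.90 and 3.65 CPM in RCF 2 and reached no more than 1.15 and 0.431 CPM in the other 9 libraries. Of the 12 genes, 8 had their highest level in RCF 2. The pseudogene Zfp125 rested on 15 reads in RCF and 1 in controls, a ratio of 14.3 (95% exact interval 2.201 to 602, counting error only). Rln1, which encodes the hormone relaxin, had 0.610, 0.510, 0.816, 0.994 and 1.44 CPM in RCF against 0.507, 0.0454, 0.300, 0.0541 and 0.424 CPM in controls, with no overlap (1.66, SE 0.51, adjusted p = 0.547).

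Of the 12 genes with a lower mean in RCF, 11 had their highest level in control 4. Zxdb, an X-linked zinc finger gene, had 7.46, 6.24, 5.91, 5.85 and 5.32 CPM in RCF against 8.16, 8.89, 9.35, 14.2 and 8.30 CPM in controls, with no overlap. Its log2 fold change was -0.67 with an SE of 0.15 (adjusted p = 0.211, and 0.0287 by DESeq2), and -0.50 without control 4. U2af1, which recognises the 3′ splice site, had 27.3, 25.5, 24.5, 27.2 and 26.6 CPM in RCF against 29.6, 27.9, 31.8, 44.3 and 34.9 CPM in controls (-0.36, SE 0.09, adjusted p = 0.319, and -0.25 without control 4). Dr1, a repressor of RNA polymerase II transcription, had 32.6, 31.8, 29.4, 32.2 and 31.8 CPM in RCF against 34.1, 36.9, 46.6, 43.0 and 32.7 CPM in controls (-0.29, adjusted p = 0.410). The RCF values of U2af1 and Dr1 were close together and below every control, and among these 12 genes Dr1 was the one whose highest library was control 3. Primpol, a primase that restarts stalled replication forks, and Ppp1r3d, a glycogen-targeting subunit of protein phosphatase 1, both had log2 fold changes of -0.61, which were -0.45 and -0.33 without control 4.

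Several of the largest folds in this direction rested on control 4. Nup210l had 0.118 to 0.505 CPM in RCF and 0.254 to 18.0 CPM in controls, and its log2 fold change of -3.56 (adjusted p = 0.297, and 0.0229 by DESeq2) was -1.21 without control 4. Hopxos, antisense to Hopx, Fndc11 and Klhl30 were at 12.1, 7.52 and 5.25 CPM in control 4 and no higher than 0.907, 0.635 and 0.156 CPM in the other 9 libraries. DESeq2 called Hopxos and Klhl30 (adjusted p = 0.0294 and 0.0283), and without control 4 the log2 fold changes of Hopxos, Fndc11 and Klhl30 were -1.33, -1.27 and -1.86. Kcnq1ot1, a paternally expressed antisense RNA of the Kcnq1 imprinted domain, had 11.4, 11.7, 9.29, 13.5 and 13.7 CPM in RCF against 14.3, 14.2, 13.0, 45.1 and 27.7 CPM in controls (-0.94, adjusted p = 0.478, and -0.54 without control 4). Hopxos and Kcnq1ot1 overlap genes on the other strand, with the same limit of strand as above. Mx1, an interferon-induced antiviral GTPase, had 0 reads in 4 RCF libraries and 0.0392 CPM in RCF 2, against 0.117, 0.181, 0.558, 2.54 and 0.0424 CPM in controls. That was 1 read in RCF and 68 in controls, a ratio of 0.0140 (95% exact interval 3.5e-04 to 0.0808, counting error only), with an adjusted p of 0.271, which was 0.0229 by DESeq2. Without control 4 its fitted log2 fold change, which depends on the prior count, was -4.07. DMRT family gene Dmrta1 rested on 11 reads in RCF and 90 in controls (adjusted p = 0.410).

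**Figure D3:**
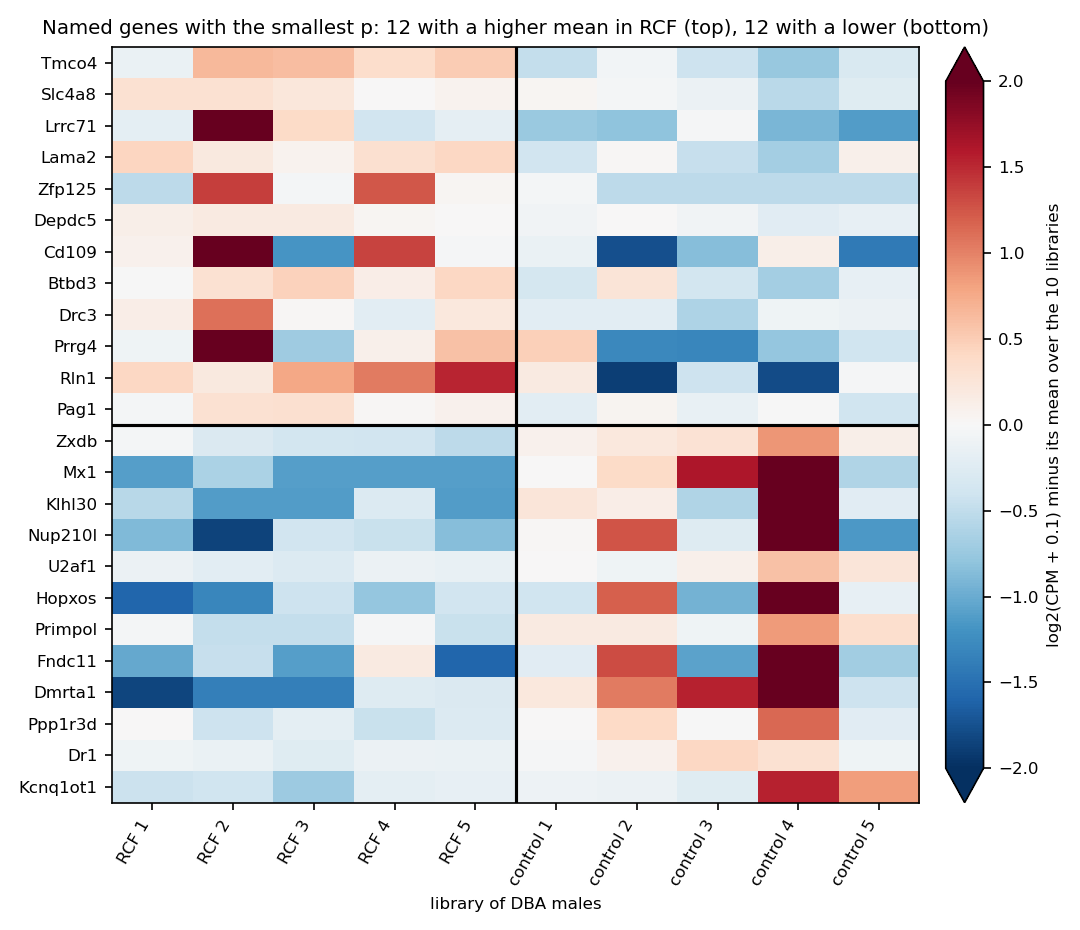
Heat map of the 24 named genes with the smallest p, 12 with a higher mean in RCF above the horizontal line and 12 with a lower mean below it, in 5 RCF libraries (left) and 5 control libraries (right). Colour is log2(CPM + 0.1) minus its mean over the 10 libraries, with colours saturated at 2. RCF 2 is darkest for Lrrc71, Cd109 and Prrg4, and control 4 is the darkest column of the lower block.

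Over all genes, the extreme library of the 1239 genes at an unadjusted p under 0.05 was most often control 4. It was the highest library for 675 of the 858 lower genes (78.7%) and the lowest for 251 of the 381 higher genes (65.9%). Since genes with a lower mean in RCF tend to have a control as their highest library by the choice itself, these counts are a description. Without control 4, 230 of the 858 lower genes (26.8%) and 130 of the 381 higher genes (34.1%) kept an unadjusted p under 0.05 in the same direction. Without RCF 2, 172 of the 381 higher genes (45.1%) did. In 116 genes (0.629%) the 5 RCF and 5 control libraries did not overlap, 56 with RCF above (0.304%) and 60 with RCF below (0.325%).

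Markers of dopamine neurons, which the tissue label calls for, were abundant in control 3 alone. Th, the rate-limiting enzyme of dopamine synthesis, had 14.9, 12.4, 29.0, 52.2 and 32.3 CPM in RCF against 19.6, 15.2, 1643, 97.7 and 12.7 CPM in controls. The dopamine transporter gene Slc6a3 had 1.22, 0.588, 23.9, 81.2 and 25.8 CPM in RCF against 5.78, 0.499, 2957, 3.62 and 1.19 CPM in controls. The other 9 libraries lay far below control 3 for both genes, and none was at 0. Over the 20 markers together, the summed level ran from 435 to 943 CPM in RCF and from 383 to 490 CPM in controls without control 3, which had 12209 CPM. In bulk tissue, fewer dopamine neurons in a punch and less RNA per neuron cannot be told apart.

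With all 10 libraries, 19 of the 20 dopamine neuron markers had a lower mean in RCF, with a median log2 fold change of -2.53, against -0.01 over all genes tested, 9 at an unadjusted p under 0.05, against 4.65% lower at that p over all genes, and 0 past the threshold. Mx1 was the only member of any list that DESeq2 called, and neither limma-voom nor edgeR called any. That control 3 stood apart for dopamine genes was known when the comparison was chosen, so these marker counts are a description. Without control 3 the median of the 20 markers was 0.46. Gch1, which makes the cofactor of tyrosine hydroxylase, had a log2 fold change of -3.71 (adjusted p = 0.671), which was -1.02 without control 3, and the nicotinic receptor subunit Chrnb3 one of -4.11 (adjusted p = 0.712), which was 0.66 without control 3. For Th, Slc6a3, the vesicular transporter Slc18a2 and the dopamine receptor Drd2 the values were -3.67, -4.48, -3.34 and -1.50 (adjusted p from 0.733 to 0.762). Without control 3 they were -0.38, 3.25, 0.49 and -0.14. Of the nicotinic receptor subunits, a list that shares Chrnb3 and Chrna6 with the dopamine neuron markers, 8 of 9 had a lower mean in RCF with a median of -1.03, which was 0.10 without control 3.

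Markers of neighbouring regions were also uneven between libraries. Of 11 tested markers of hypothalamus and mammillary body, 9 had a lower mean in RCF (median log2 fold change -0.57), and their summed level ran from 73.6 to 296 CPM in RCF and from 32.5 to 1235 CPM in controls. Pmch, a peptide gene of the lateral hypothalamus, had 129, 10.4, 26.6, 6.20 and 25.2 CPM in RCF against 124, 0.635, 10.7, 846 and 118 CPM in controls, and Hcrt, the orexin gene, reached 43.2 CPM in RCF and 273 in control 4. The forebrain transcription factor gene Emx1 was at 4.43 CPM in control 4 and no higher than 0.953 CPM in the other 9 libraries. The cortical glutamate transporter gene Slc17a7 had a log2 fold change of -0.09, which was 0.67 without control 2, Tph2, of serotonin neurons, one of -0.08, which was 0.48 without control 3, and the hindbrain gene Hoxb5 had 1 read in RCF and 3 in controls. Among 9 GABA neuron markers 5 were higher and 4 lower (median log2 fold change 0.14). Their summed level ran from 567 to 1639 CPM in RCF and from 688 to 1091 CPM in controls. Of the 4 lower ones, the midbrain factors Tal1 and Gata3 peaked at 20.7 and 17.9 CPM in control 3 (log2 fold changes -1.59 and -2.72, adjusted p = 0.742 each, and -0.94 and -1.55 without control 3). What part these contents had in other genes' differences was not tested beyond leaving the libraries out.

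**Figure D4:**
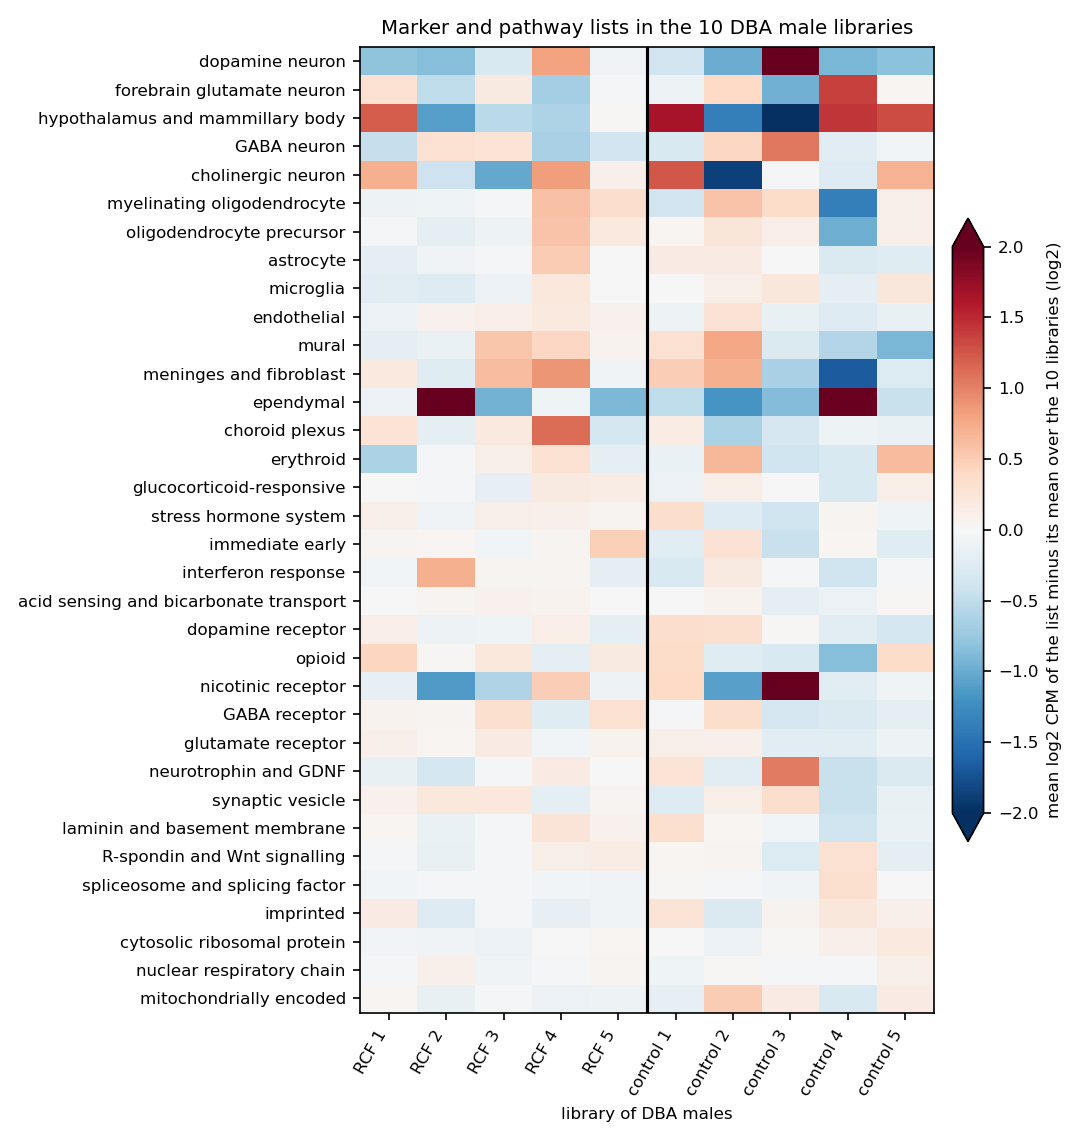
Heat map of the mean log2 CPM of each marker or pathway list, minus its mean over the 10 libraries, in 5 RCF libraries (left) and 5 control libraries (right), with colours saturated at 2. Dopamine neuron and nicotinic receptor lists are highest in control 3, the ependymal list in RCF 2 and control 4, and the oligodendrocyte lists are lowest in control 4.

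Oligodendrocyte, astrocyte and vascular markers had small positive medians that shrank without control 4. All 15 markers of myelinating oligodendrocytes, which wrap axons, had a higher mean in RCF, with a median log2 fold change of 0.17 and 0 past the threshold, and without control 4 the median was -0.06. The transcription factor gene Myrf had 119, 120, 133, 184 and 150 CPM in RCF against 110, 165, 140, 46.8 and 126 CPM in controls, so only control 4 was below the RCF range by a wide margin. The summed level of the list was 9961 to 16456 CPM in RCF and 3921 to 16432 CPM in controls, whose lowest without control 4 was 8415 CPM. All 8 precursor markers were likewise higher (median 0.15, which left the positive side without control 4), as were 8 of 11 astrocyte markers (0.11), among them the glutamate transporter Slc1a2, at 0.27 (adjusted p = 0.789, and 0.10 without control 4). Endothelial markers were higher in 10 of 11 (median 0.12), mural markers in 7 of 8 (0.17) and meningeal and fibroblast markers in 8 of 8 (0.27, and 0.06 without control 4).

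Microglial markers had a negative median with and without control 4. Of 14, 12 had a lower mean in RCF, as did 9500 of the 18441 genes tested. The median log2 fold change was -0.16, with 2 at an unadjusted p under 0.05, against 4.65% lower at that p over all genes, and 0 past the threshold, and without control 4 the median was -0.25. Siglech, a microglial surface lectin, had 5.21, 4.51, 5.64, 5.53 and 5.41 CPM in RCF against 5.93, 6.31, 8.97, 6.33 and 7.33 CPM in controls, with no overlap (-0.41, SE 0.16, adjusted p = 0.700). C1qc, a chain of complement C1q, had 9.57, 9.73, 10.8, 14.9 and 11.2 CPM in RCF against 12.6, 14.0, 13.4, 13.7 and 16.7 CPM in controls (-0.32, SE 0.15, adjusted p = 0.733). Only RCF 4 of the RCF libraries reached the controls. The summed level of the list overlapped, at 260 to 359 CPM in RCF and 278 to 393 CPM in controls.

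Ependymal and interferon genes were high in RCF 2. The 5 ependymal markers, genes of the ciliated cells that line the ventricles, all had a higher mean in RCF with a median log2 fold change of 0.71, which was -0.48 without RCF 2. Foxj1, the master factor of motile cilia, had 4.97, 41.5, 5.05, 7.04 and 5.08 CPM in RCF against 3.55, 6.81, 6.01, 18.0 and 4.19 CPM in controls, and Ccdc153 had 0 reads in 6 libraries and 16.7 CPM in RCF 2. Of 23 interferon response genes, 15 were higher and 8 lower (median 0.44, and 0.06 without RCF 2). Ifih1, a sensor of double-stranded RNA, had 3.19, 3.33, 2.22, 3.14 and 1.68 CPM in RCF against 1.68, 1.86, 1.89, 0.865 and 1.91 CPM in controls (0.72, SE 0.24, adjusted p = 0.630), with RCF 5 alone inside the control range. Its direction was the opposite of that of Mx1.

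Receptor, channel and matrix lists had small shifts and no member past the threshold. GABA receptor subunits were higher in 12 of 14 (median 0.13), led by Gabrb2, with 144, 125, 141, 119 and 138 CPM in RCF against 128, 133, 93.6, 38.6 and 76.9 CPM in controls (0.50, SE 0.23, adjusted p = 0.740), which was 0.30 without control 4. Glutamate receptor subunits were higher in 16 of 22 (0.10), and without control 4 the median was 0.05. Of 20 genes of acid sensing and bicarbonate transport, the list that holds Slc4a8, 15 were higher (0.11). Laminin and basement membrane genes split evenly, 12 higher and 10 lower, and Dag1, the laminin receptor dystroglycan, was at 0.25 (SE 0.08, adjusted p = 0.630, and 0.14 without control 4). Of 18 genes of R-spondin and Wnt signalling, 7 were higher and 11 lower. Lgr5, a receptor for R-spondins, was at 0.62 and Notum, an inhibitor that strips lipid from Wnt proteins, at -0.64 (adjusted p = 0.740 and 0.733), which were 0.41 and -0.07 without control 4.

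Stress-related lists had small positive medians, with 0 members at an unadjusted p under 0.05. Glucocorticoid-responsive genes were higher in 12 of 16 with a median log2 fold change of 0.08, and the cell cycle inhibitor gene Cdkn1a was at -0.56 (adjusted p = 0.746, and -0.22 without control 3). Among 9 genes of the stress hormone system 5 were higher and 4 lower (median 0.17, and -0.059 without control 4). Crh, which encodes corticotropin-releasing hormone, had 1.31, 1.65, 2.10, 1.23 and 1.15 CPM in RCF against 3.32, 1.45, 2.49, 8.27 and 1.02 CPM in controls (-1.14, SE 0.56, adjusted p = 0.744). The groups overlapped, and without control 4 the value was -0.48. The oxytocin receptor gene Oxtr was at 0.73 (adjusted p = 0.811). Immediate early genes were higher in 11 of 15 (median 0.28, and 0.13 without RCF 5).

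Ribosomal, splicing, imprinted and mitochondrial lists had negative medians of small size. Cytosolic ribosomal protein genes had a lower mean in RCF in 77 of 82, with a median log2 fold change of -0.09, 10 at an unadjusted p under 0.05, against 4.65% lower at that p over all genes, and 0 past the threshold, and leaving out single libraries put the median between -0.14 and -0.05. Rpl14 had 121, 111, 107, 113 and 131 CPM in RCF against 127, 118, 135, 167 and 137 CPM in controls (-0.23, SE 0.08, adjusted p = 0.630). Many ribosomal protein genes have near-identical pseudogene copies, so their counts are uncertain where reads could be split. Splicing factor genes were lower in 17 of 23 (-0.11, and -0.05 without control 4), with Hnrnpa1 at -0.18 (adjusted p = 0.667, and -0.12 without control 4). Imprinted genes were lower in 16 of 23 (-0.19, and -0.09 without control 4), and all 9 tested mitochondrially encoded genes were lower (-0.14, and -0.21 without control 4), while the nuclear respiratory chain genes split into 44 higher and 32 lower.

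**Figure D5:**
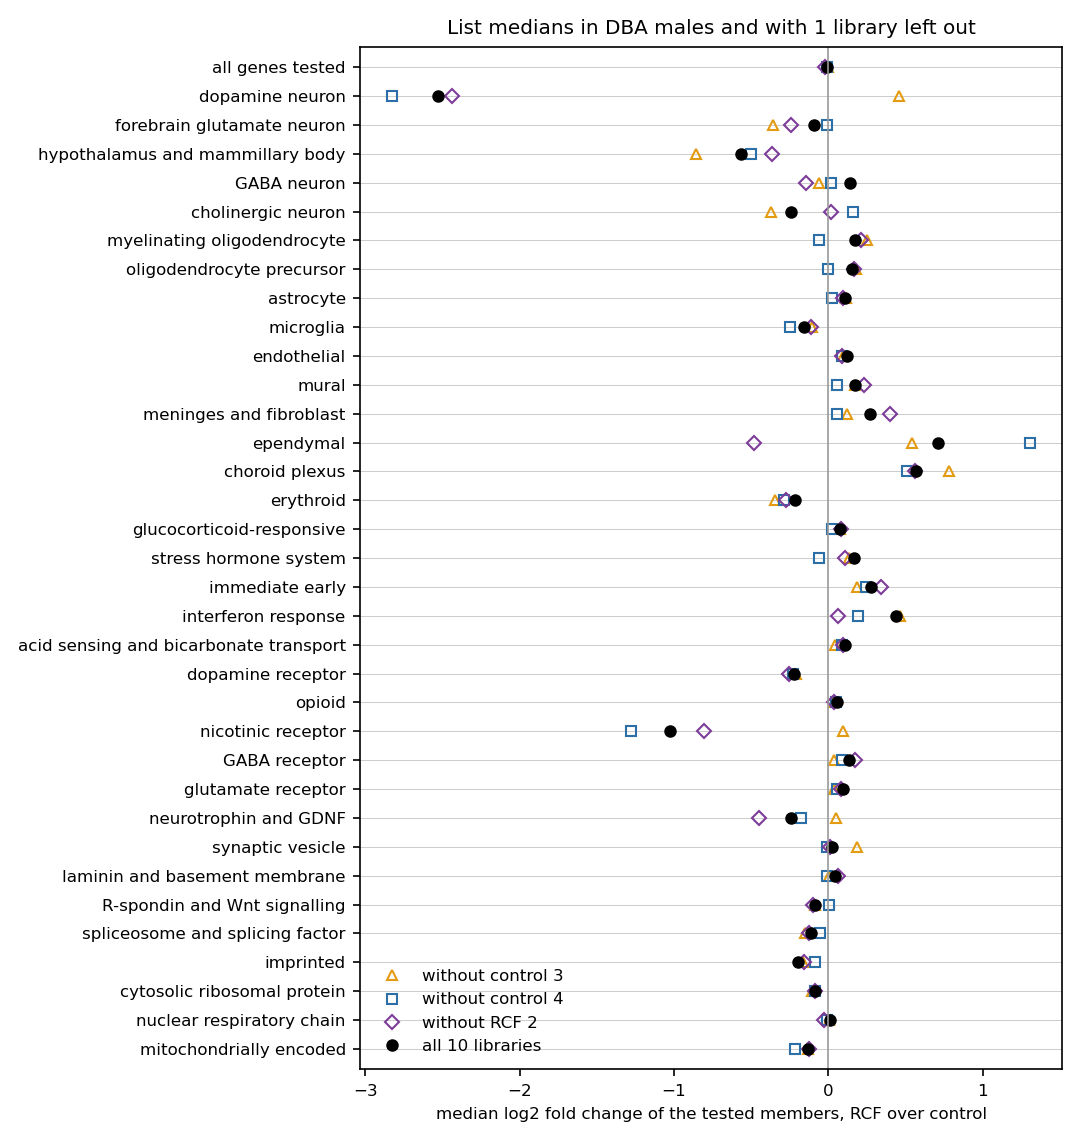
Median log2 fold change, RCF over control, of the tested members of each list in DBA males, with all 10 libraries (black) and without control 3, control 4 or RCF 2 (open symbols). The dopamine neuron median is -2.53 with all libraries and 0.46 without control 3, and the ependymal median is 0.71 and -0.48 without RCF 2, while most other lists lie within 0.3 of 0.

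Whether the RCF effect in DBA males differed from that in C57 males was tested for every gene, and 0 genes passed (0%) by edgeR, with 1500 at an unadjusted p under 0.05 (8.13%). DESeq2 called 3 and limma-voom 1. The smallest p with a higher effect in DBA males belonged to Eepd1, Ddit4l and Depdc5, with differences of 1.78, 2.24 and 0.33 on the log2 scale, and with a lower effect to Zxdb, Zdbf2, an imprinted gene, and Ptbp2, a neuronal splicing repressor, with -0.90, -0.84 and -0.45 (adjusted p = 0.610 each). Of these DESeq2 called Ddit4l (2.24, adjusted p = 0.0318). Depdc5 had log2 fold changes of 0.21 in DBA males and -0.12 in C57 males, and Zxdb -0.67 and 0.24.

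Against DBA females, 1 gene had a different RCF effect (0.00542%), with 2170 at an unadjusted p under 0.05 (11.8%). Gm2451 had 0.363 CPM in RCF and 0.357 CPM in control DBA males on average, and its difference of 5.54 (SE 0.49, adjusted p = 4.69e-09) came from the DBA females, where RCF libraries had 0.378 to 0.450 CPM and controls 17.6 to 20.8 CPM. Among genes that did not pass by edgeR, the differences were 0.80 for Ncdn, a neuronal protein linked to neurite outgrowth, and 1.21 for Tmco4 with a higher effect in males. Those of Tle2, a Groucho family corepressor, Mx1 and Gpat2 were -1.23, -8.01 and -2.77 (adjusted p from 0.204 to 0.266 over the 5 genes), and DESeq2 called all 5 (adjusted p from 0.00658 to 0.0475). The fitted value of Mx1 depends on the prior count, since RCF males had 1 read.

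The direction of the male differences was compared with the other comparisons of the series as a description. Of the 1239 genes at an unadjusted p under 0.05 in DBA males, 497 (40.1%) had the same sign in DBA females, 590 (47.6%) in C57 males and 627 (50.6%) in C57 females, against 43.9%, 44.9% and 53.0% of all genes tested. With 5 against 5 libraries an exact permutation test, two-sided, cannot go below 0.00794. By that test total counts, genes with a read, the mitochondrial share and the share of the 50 most counted genes gave adjusted p of 0.709, 0.929, 0.709 and 0.709. The mitochondrial share was 5.14% ± 0.145 in RCF and 5.60% ± 0.969 in controls (SD, n = 5 each).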

How the data were processed

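Per the labels' protocols, RNA from frozen VTA punches was purified on Norgen columns. Stranded libraries (Tecan Universal Plus mRNA-Seq) were read on a NextSeq 500, 75 nt from 1 end. The submitters' processing notes name bcl2fastq 2.20, cutadapt 1.11, FastQC, GRCm38 and mm10. Some steps were not given in the sources used here, among them aligner, counting tool, strand setting and annotation release. What the authors deposited is a table of raw read counts, whole numbers, with genes in rows. Of 55471 genes, 54487 matched GENCODE M21 by versioned identifier and 657 without the version, and 327 had no symbol. Columns mapped to no sample numbered 0.

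One model over all 40 libraries held a mean for each of the 8 groups (edgeR 4.0.16, quasi-likelihood with robust moderation, R 4.3.3, 32 residual degrees of freedom). It used TMM factors, from 0.905 to 1.09, and the filterByExpr filter, which left 18441 genes. Adjustment over all of these followed Benjamini and Hochberg, threshold 0.05. Fold changes are RCF over control, and log2 CPM used a prior count of 2. Transcripts were matched with BLAST 2.17.0. No pair of the 10 libraries came within sampling noise (lowest chi-square per degree of freedom 9.14).

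Alternatives were no filter, DESeq2 size factors, DESeq2 1.42.0, limma-voom (limma 3.58.1), a replicate block, a dopamine marker covariate, fewer libraries in the fit, and each library left out. The text names every gene that edgeR called with all libraries, then, without gene models, the 12 smallest p per direction. It adds 4 dopamine genes, 4 defining markers, up to 2 members with the smallest p for lists described (some are not reported here), overlapping and nearest genes of the called models, and 3 genes per direction in each difference. The comparison and the lists were chosen with earlier results of these data known, so no list has a p.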

Additional observations from a re-analysis of the deposited data

Results flagged for a closer look

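In 146 sets of 5 libraries, a library lay far from the other 4 in 21 cases. The sets were named genes, list means and library properties, RCF and control apart. Dixon's rule was used, which sets the gap to the nearest library against the full range, with a critical value of 0.71. It did not flag Th in control 3 or Gm43333 in control 4, though each was the highest control by a wide margin. The rule flags about 1 set in 20 by chance, but that rate does not hold for these sets. They share libraries, some genes were picked for a small p in them, and some sets had 4 libraries at 0 reads. The 21 cases are therefore a description. Control 3 was far above the other controls for Slc6a3 (2957 CPM), Drd2 (328 CPM) and the dopamine neuron list (mean log2 CPM 8.08), and far below them for Drc3 (6.05 CPM). That control 3 stood apart for dopamine genes was also known when the comparison was chosen, which bears on its cases for Slc6a3, Drd2 and the dopamine neuron list. Control 4 was far above for Gm49192 (9.14 CPM), Zxdb (14.2 CPM), Klhl30 (5.25 CPM), Hoxb5 (0.177 CPM of total counts), the ependymal list (2.86) and the splicing factor list (6.67), and far below for the oligodendrocyte precursor list (4.96). Control 1 was the one control with a read of Zfp125 (0.0390 CPM).

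RCF 1 was far above the other RCF libraries for Gm49192 (30.5 CPM) and the one with a read of Hoxb5 (0.0473 CPM of total counts). RCF 2 was far above for Lrrc71 (7.57 CPM), the ependymal list (3.95) and the interferon response list (1.95), and the one with a read of Mx1 (0.0392 CPM). RCF 3 was far below for Dr1 (29.4 CPM), RCF 4 far above for the astrocyte list (8.14) and RCF 5 far above for the immediate early list (3.09). Gm2451 differed between the sexes in its RCF effect, by 5.54 on the log2 scale for DBA males minus DBA females, by the test of the difference.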

How the results depend on the processing

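Gm49192, Gm48159 and Gm43333 stayed past the threshold with no filter, DESeq2 size factors, DESeq2, the dopamine marker covariate and each of the 10 libraries left out. Against 2 genes higher and 1 lower, DESeq2 called 3 and 15, limma-voom 0 and 0, the 10 compared or the 20 DBA libraries alone 2 and 0, and the fit without controls 3 and 4, or without these and RCF 2 (chosen after seeing the data), 1 and 1. Leaving out single libraries gave 2 higher and 1 to 5 lower genes, with 5 without control 1 and 2 without control 3 or 5. For DBA males minus C57 males, where 0 passed, DESeq2 called 2 higher and 1 lower, limma-voom 0 and 1, and single libraries left out gave 0 to 1 higher, the 1 being Gm48159 without C57 RCF 2. For DBA males minus DBA females, DESeq2 called 5 and 14 and no filter 1 and 1.

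Same-numbered libraries of DBA males correlated at 0.18, 0.04, -0.02, -0.11 and 0.07. RCF 1 and 5 correlated best with the control of their own number, and RCF 2, 3 and 4 did not. These values cannot show whether libraries of the same number share a litter or batch. The replicate block gave 1 higher (Gm49192) and 0 lower genes, and 1 higher gene for the difference from C57 males. Under it the log2 fold change was 0.57 for Slc6a3, 0.32 for Slc17a7 and 0.043 for the sex difference of Gm43333.

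Other signs turned as follows. Without controls 3 and 4, and without these and RCF 2, the log2 fold change was 0.83 and 1.01 for Th, 3.38 and 3.70 for Slc6a3, 0.35 and 0.55 for Slc18a2, 0.031 and 0.081 for Drd2, 0.47 and 0.73 for Chrnb3, 0.38 and 0.60 for Chrna6, and -0.0086 and -0.032 for Olig2. Tph2 had 0.20 without controls 3 and 4. List medians in these fits were 0.37 and 0.45 for dopamine neurons, 0.072 and 0.088 for nicotinic receptors, 1.38 and 1.45 for choroid plexus, and -0.0096 for interferon response without all 3 libraries. The dopamine marker covariate gave 1.60 for Slc6a3 and 0.37 for Tph2. Slc6a3 is itself among the markers averaged in the covariate, so its value there cannot show a difference apart from that list. By limma-voom Slc17a7 had 0.42, and the sex differences of Gm43333 and Gm48159 were 0.060 and -0.066.

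With single libraries left out, log2 fold changes ran from -5.55 to 3.25 for Slc6a3, -3.89 to 0.49 for Slc18a2, -0.36 to 0.67 for Slc17a7, -0.54 to 0.48 for Tph2, -4.93 to 0.66 for Chrnb3, -0.48 to 1.31 for Foxj1, -2.65 to 9.34 for Ccdc153 and -4.42 to 0.68 for Chrna6. Sex differences ran from -2.20 to 0.19 for Gm43333 and -0.070 to 0.47 for Gm48159. List medians ran from -2.85 to 0.46 for dopamine neurons, -0.059 to 0.30 for the stress hormone system, 0.061 to 0.56 for interferon response and -1.39 to 0.10 for nicotinic receptors. The RCF minus control difference ran from -70414.5 to 1973530 in total counts and from -504.75 to 116.25 in genes with a read. Of 74 genes, 63 kept their sign in every alternative run. Most of the 74 were picked for a small p in this comparison, and the runs share most libraries, so the count is a description. The cause of the turned signs was not tested. Genes with a few reads per library, such as Zfp125, Mx1 and Klhl30, are limited by depth.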
